A study of Homo sapiens with 24 samples.

Results

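The m6A peaks on 9 transcripts of the insulin and IGF receptor pathway were described in 6 human cell populations. The 9 genes were the receptors INSR, IGF1R and IGF2R, the adaptors IRS1 and IRS2, the PI3K regulatory subunits PIK3R1 and PIK3R2, and the kinases AKT1 and AKT2. A peak belonged to a gene where the authors' annotation of the peak included the GENCODE identifier of that gene. By this rule 240 of the 228472 peaks in the 6 lists were on the 9 transcripts. There were 38 such peaks in human pluripotent stem cells (hPSC), 35 in definitive endoderm (DE), 36 in pancreatic progenitors (PP) and 40 in islet-like organoids (hILO). There were 51 in wild-type PP (WT PP) and 40 in PP without ALKBH5 (A5-KO PP).

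All cells came from MEL1, a human embryonic stem cell line, which here carried a GFP reporter in the INS gene. ALKBH5 removes m6A from RNA. It was edited in its first exon with CRISPR-Cpf1 and knockout colonies were picked, so that the A5-KO cells stand for picked clones. For each population 2 immunoprecipitated (IP) and 2 input libraries were made, 24 in all, and each peak list holds 1 IP and 1 input value per peak for the population. There was therefore no spread between replicates and no test of a difference between populations. The labels put hPSC, DE, PP and hILO, with no edit of ALKBH5, in batch 1 (mRNA, SYSY antibody) and WT PP and A5-KO PP in batch 2 (total RNA, Millipore antibody, another library kit, rRNA depleted from the input). Batch and population cannot be told apart between these groups, and stages were compared within batch 1 and genotypes within batch 2. The hPSC were grown on mouse feeder cells.

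Insulin and the IGFs bind INSR and IGF1R, which are receptor tyrosine kinases. The activated receptors phosphorylate IRS1 and IRS2, and these dock the regulatory subunits of PI3K (PIK3R1 and PIK3R2 encode p85α and p85β). PI3K makes the membrane lipid that recruits AKT1 and AKT2, kinases that act on glucose uptake, growth and FOXO factors. IGF2R binds IGF2 and carries it to lysosomes, and it also sorts lysosomal enzymes. The pathway acts in β cells as well as in liver, muscle and fat. m6A is written on mRNA mostly at DRACH motifs (D for any base but C, R for a purine, H for any base but G), with GGAC a frequent core, and it is often found near stop codons and in 3′UTRs.

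A locus was defined by merging peaks that overlapped across the lists. The 12 loci with a peak in all 6 lists are shown by 1 window each, because these are the places on the 9 transcripts where every list had a peak. At the IRS2 CDS locus the window lies in the stretch of 5 lists, and the PP peak lies outside it. Each window holds the DRACH match with GGAC nearest the middle of the core shared by the lists, or the nearest DRACH match where the core had no GGAC. It was read from GRCh38 on the transcript's strand, 12 bases on either side of the motif. Capitals mark the motif, which is a match and not a mapped m6A site.
INSR, 3′UTR, chr19:7116129-7116157, minus strand: caaaccaagctaGGACAttaaaaaaaaaa
IGF1R, CDS, chr15:98707953-98707981, plus strand: tgcggtgtccaaTAACTacattgtgggga
IGF1R, end of CDS, chr15:98957290-98957318, plus strand: gacagacactcaGGACAcaaggccgagaa
IGF1R, 3′UTR, chr15:98961817-98961845, plus strand: ttggaagatggaAGACCgtgttcgtggcc
IGF1R, 3′UTR, chr15:98962525-98962553, plus strand: gatacagaccttGGACAggtcagagggtt
IGF2R, end of CDS, chr6:160105054-160105082, plus strand: cgacagcgacgaGGACCtcttacacatct
IGF2R, 3′UTR, chr6:160110860-160110888, plus strand: tctaaaaaggttGGACTcagaagcagaga
IRS1, CDS, chr2:226795165-226795193, minus strand: ggatttggtcaaGGACTtcaaacagtgcc
IRS1, 3′UTR, chr2:226735973-226736001, minus strand: cttcaaccttaaGGACTtagctggccaca
IRS2, CDS, chr13:109785285-109785313, minus strand: ctgcggccactcGGACAgcttcttcttca
IRS2, 3′UTR, chr13:109755612-109755640, minus strand: aaatttgggattGGACTttgaagacggat
PIK3R1, 3′UTR, chr5:68298058-68298086, plus strand: gctgtgcacggtGGACCcagacacatcgc

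The reads given beside a peak could be used for only some rows. With the rows put in the order of the peak names, read counts rose with peak length only in the first and last stretches of each list. In the other stretches the median rank correlation of reads with length was between -0.0125 and 0.0273 across the lists, against 0.513 to 0.591 where reads and peaks matched row by row (rows in register). Rows in register made up 37.3% of the hPSC list, 34.2% of DE, 10.6% of PP, 7.99% of hILO, 6.49% of WT PP and 6.74% of A5-KO PP. On the 9 transcripts they were 27 of 240 rows, with 10 in hPSC, 15 in DE and 2 in A5-KO PP. Reads and enrichment are therefore given only from these 27 peaks, and everything else rests on where peaks lie. The adjusted p-values stand beside the reads and did not exceed 0.05 in any list. Whether that limit was set before or after rows went out of register is not known. The peak numbers skip 0.136% of names in hPSC, then 1.42% in DE, 4.23% in PP and 3.86% for hILO, with 9.51% in WT PP against 4.72% in A5-KO PP. A missing peak may thus be one of the skipped names, and fewer copies of a transcript and less methylation of it cannot be told apart by its absence.

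**Figure D1:**
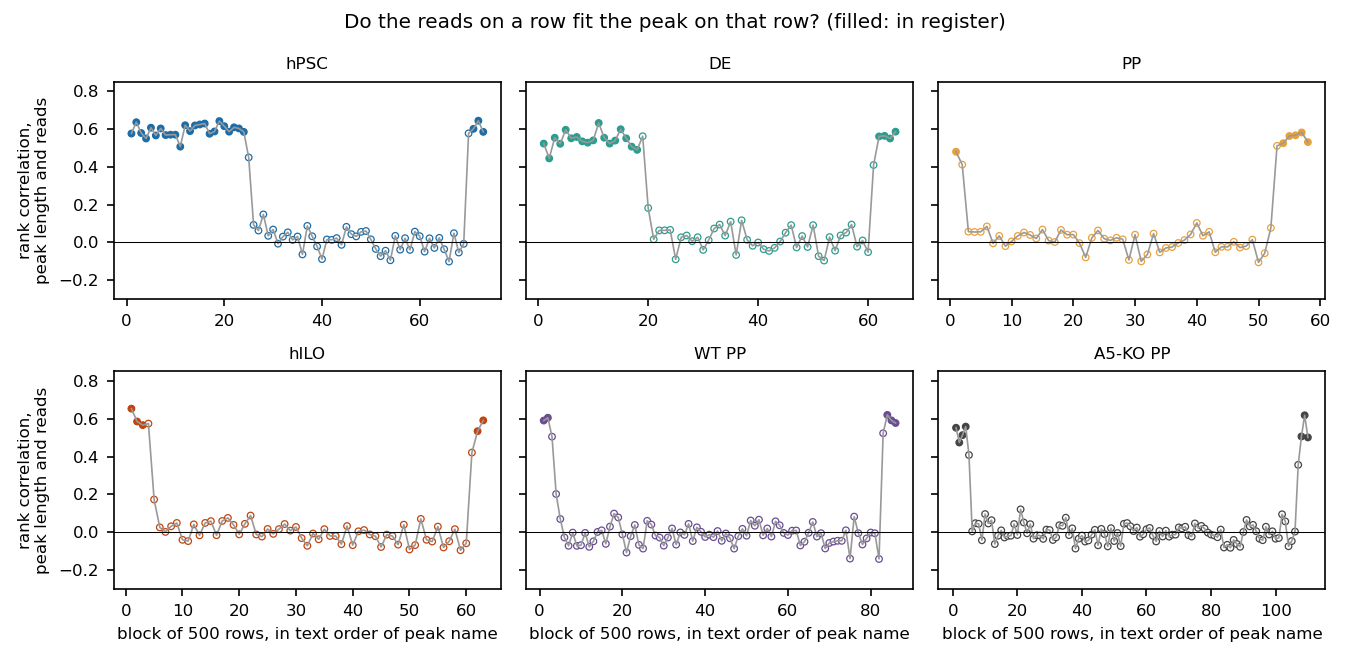
Rank correlation of read counts with peak length (vertical axis) in blocks of 500 rows along each list, in the order of the peak names, with filled points for blocks in register. Values are high in the first and last stretches, with a median of 0.513 to 0.591 in register, and near 0 in between.

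Marker genes followed the labels in part. POU5F1 and NANOG, pluripotency factors, had peaks in hPSC (1 and 3) and DE (1 and 2) and none in the other 4 lists. SOX17, an endoderm factor, had 3 peaks in DE, 3 in WT PP and 2 for A5-KO PP, and none in hPSC, PP or hILO. PDX1 and NKX6-1, pancreatic progenitor factors, had peaks in PP, hILO, WT PP and A5-KO PP and none in hPSC or DE. SOX9, also a marker of progenitors, had 2 peaks in hPSC, as many as in PP, and FOXA2, a further endoderm factor, had 2 or 3 in every list but hPSC. INS, GCG and SST, the hormones of islet cells, had peaks in hILO only (2, 1 and 2). ALKBH5 itself had 4 peaks in WT PP and 5 for A5-KO PP. An edit in the first exon can leave the transcript in place, so these peaks do not check the knockout.

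All 9 transcripts had a peak in every list, except AKT2, which had none in PP. The background share of protein-coding genes with at least 1 peak was 60.2% in hPSC, then 57.0% in DE, 52.2% in PP and 57.7% for hILO, with 62.8% in WT PP against 69.7% in A5-KO PP. Transcripts with 5 or more peaks numbered 3 in hPSC (IGF1R, IRS1, IRS2), 3 in DE (IGF1R, IGF2R, PIK3R1), 4 in PP (IGF1R, IGF2R, IRS1, PIK3R1) and 6 in hILO (INSR, IGF1R, IGF2R, IRS1, IRS2, PIK3R2). They numbered 4 in WT PP (INSR, IGF1R, IGF2R, IRS2) and 3 in A5-KO PP (IGF1R, IRS1, IRS2). Among all protein-coding genes 11.6%, 9.09%, 8.50%, 8.81%, 15.5% and 17.5% had 5 or more peaks in hPSC, DE, PP, hILO, WT PP and A5-KO PP. IGF1R was the one gene of the 9 with at least 5 peaks in all 6 lists.

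The longest coding isoforms of the 9 genes were 3711 to 14061 nt long. Per kb of annotated exon, the median over the 9 genes was 0.277 peaks in hPSC, then 0.368 in DE, 0.306 in PP and 0.462 for hILO, with 0.399 in WT PP against 0.245 in A5-KO PP. The median over all protein-coding genes with a peak was 0.458, 0.423, 0.405, 0.412, 0.505 and 0.503 in the same order. The 9 genes lay below that median in every list but hILO. The exon length sums all annotated isoforms, and the 9 genes were not required to have a peak.

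**Figure D2:**
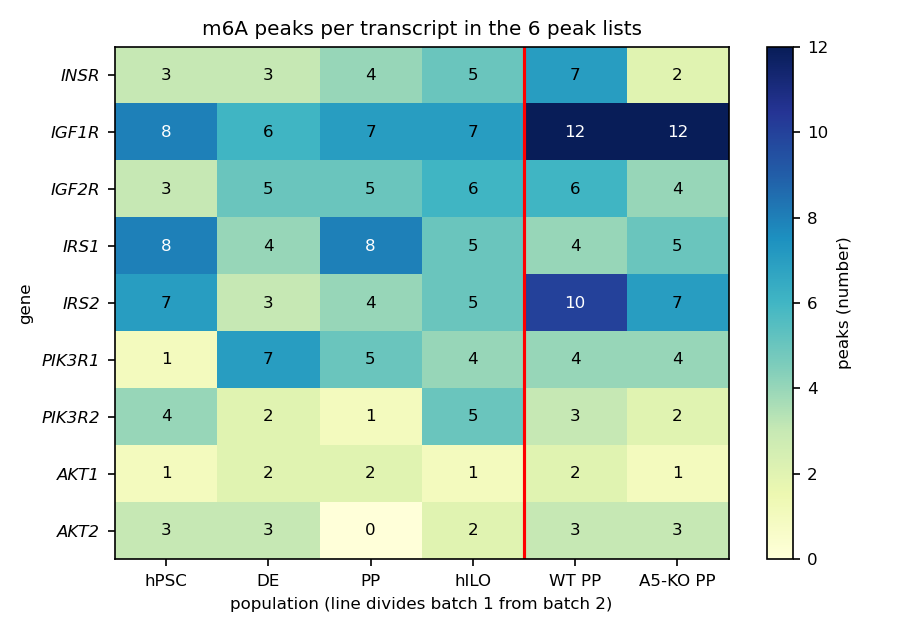
Number of m6A peaks on each of the 9 transcripts in each of the 6 lists, as colour and number, with a line between the batches. IGF1R holds 6 to 12 peaks in every list, whereas AKT1 holds 1 or 2 and AKT2 at most 3.

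IGF1R, the receptor for the IGFs on chromosome 15, had 8 peaks in hPSC, then 6 in DE, 7 in PP and 7 for hILO, with 12 in WT PP against 12 in A5-KO PP. Its peaks covered 2300, 2450, 2050 and 2225 nt of exon in the 4 stages, and 4025 and 3500 nt in WT PP and A5-KO PP. The stages were close to one another, and both batch 2 lists were above them. Of the 52 IGF1R peaks 35 had their midpoint in the 3′UTR, 10 in the CDS and 3 in the 5′UTR of the longest coding isoform. The 4 loci called in all 6 lists were a CDS stretch at chr15:98707725-98708024, the stop codon region at chr15:98957140-98958789, and 3′UTR stretches at chr15:98961615-98962089 and chr15:98962365-98963014. The stop codon region alone held 4 peaks in hPSC, then 3 in DE, 3 in PP and 4 for hILO, with 2 in WT PP against 3 in A5-KO PP.

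INSR, the insulin receptor on chromosome 19, had 3 peaks in hPSC, then 3 in DE, 4 in PP and 5 for hILO, with 7 in WT PP against 2 in A5-KO PP. The 4 stages shared 3 loci. The first lay over the stop codon (chr19:7116930-7117329) and had 1 peak in each stage, but none in WT PP or A5-KO PP. Its core holds a GGAC match, shown here as an example of a locus called in all 4 stages and in neither batch 2 list.
INSR, end of CDS, chr19:7117202-7117230, minus strand: gaatgtgcccctGGACCgttcctcgcact
The other two lay in the 3′UTR. The locus at chr19:7115755-7116279 had a peak in all 6 lists, and the one at chr19:7115055-7115579 had 1 peak in each stage and in A5-KO PP, but none in WT PP. Upstream, WT PP had 1 peak in the 5′UTR and 3 in the CDS that no other list had. Most of the difference of 7 peaks in WT PP from 2 in A5-KO PP lay in these and in a peak near the end of the 3′UTR. In exon covered by peaks both lists stood at 1025 and 900 nt.

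IGF2R, which clears IGF2 and sorts lysosomal enzymes, had 3 peaks in hPSC, then 5 in DE, 5 in PP and 6 for hILO, with 6 in WT PP against 4 in A5-KO PP. Its stop codon locus (chr6:160103757-160105589) held 1 peak in each of the 6 lists. A 3′UTR locus near the end of the transcript (chr6:160110715-160111114) did so too. Between them, chr6:160106140-160106539 had 1 peak in hPSC and hILO, 2 in DE and PP, and none in either batch 2 list. This locus and the INSR stop codon locus were the 2 loci of the 9 transcripts that all 4 stages had and both batch 2 lists lacked. The core of the IGF2R locus (75 nt) held 1 DRACH match, TGACT, and no GGAC, and its window is not shown.

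IRS1, an adaptor below INSR and IGF1R, had 8 peaks in hPSC, then 4 in DE, 8 in PP and 5 for hILO, with 4 in WT PP against 5 in A5-KO PP. In nt of exon the order was another: 2625 in hPSC, then 1125 in DE, 2350 in PP and 2225 for hILO, with 4150 in WT PP against 3450 in A5-KO PP. In WT PP neighbouring stretches were called as one, with a single peak of 2375 nt across the CDS where hPSC had 4. Such a count thus depends on how the caller splits a stretch. DE was lowest of the 6 by nt and, with WT PP, lowest by count. The CDS locus (chr2:226792304-226797281) and the 3′UTR locus (chr2:226735742-226792178) were called in all 6 lists, and the coordinates of each include intron. The 5′UTR locus at chr2:226798757-226799331 had a peak in hPSC, hILO, WT PP and A5-KO PP, and none in DE or PP.

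IRS2, the other adaptor and the one best known for its part in β cells, had 7 peaks in hPSC, then 3 in DE, 4 in PP and 5 for hILO, with 10 in WT PP against 7 in A5-KO PP. Covered exon was 1350 nt in hPSC, then 650 in DE, 750 in PP and 975 for hILO, with 3350 in WT PP against 1700 in A5-KO PP. WT PP was thus highest on both measures and DE lowest. Of the 36 peaks 23 lay in the CDS and 11 in the 3′UTR. A locus in the first part of the CDS (chr13:109785128-109786052) and one that joins the last part of the CDS with the 3′UTR (chr13:109755445-109782902) had a peak in all 6 lists. In PP the peak at the former lay beside the core of the other 5 lists, at chr13:109785703-109785752. A CDS locus at chr13:109784078-109784502 held a peak in hPSC, PP and WT PP, and none in DE, hILO or A5-KO PP.

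PIK3R1, which encodes the main regulatory subunit of PI3K, had 1 peak in hPSC, then 7 in DE, 5 in PP and 4 for hILO, with 4 in WT PP against 4 in A5-KO PP. Covered exon was 250 nt in hPSC, then 1125 in DE, 3004 in PP and 1875 for hILO, with 1300 in WT PP against 2942 in A5-KO PP. The hPSC list was lowest on both measures, and its peak lay in the 3′UTR locus (chr5:68297416-68298565) that all 6 lists had. A locus at the first coding exon (chr5:68217743-68273398) had 3 peaks in DE, 2 in PP, 1 in hILO and 1 in A5-KO PP, and none in hPSC or WT PP. The locus in the later coding exons (chr5:68293804-68295493) had peaks in all lists but hPSC. Several of these peaks join exons of alternative isoforms, so that their length in nt depends on the annotation.

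PIK3R2, the other PI3K regulatory subunit, had 4 peaks in hPSC, then 2 in DE, 1 in PP and 5 for hILO, with 3 in WT PP against 2 in A5-KO PP. The PP peak covered 25 nt of annotated exon. In the other lists peaks covered 650, 300, 825, 675 and 225 nt in the order hPSC, DE, hILO, WT PP and A5-KO PP. CDS loci at chr19:18166189-18167340 and chr19:18168675-18169089 were called in hPSC, DE and hILO, and in neither batch 2 list. A locus at the start of the transcript (chr19:18155720-18156144) was called in hPSC, WT PP and A5-KO PP. Peaks at its 3′ end also carry the identifiers of IFI30 and of ENSG00000268173, which overlap it, so their reads cannot be assigned to PIK3R2 alone.

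AKT1, a kinase below PI3K, had 1 peak in hPSC, then 2 in DE, 2 in PP and 1 for hILO, with 2 in WT PP against 1 in A5-KO PP, and these covered 50 to 350 nt. No AKT1 locus was called in more than 2 lists. AKT2, the form most tied to insulin-driven glucose uptake, had 3 peaks in hPSC, then 3 in DE, none in PP and 2 for hILO, with 3 in WT PP against 3 in A5-KO PP. Of its 14 peaks 11 lay in the 3′UTR. A 3′UTR locus at chr19:40233492-40233766 was called in hPSC, DE, WT PP and A5-KO PP, and one at chr19:40232892-40233366 in hPSC, hILO, WT PP and A5-KO PP. WT PP, which is of the same stage as PP, thus had both.

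By role, the 3 receptors held 105 peaks, the adaptors 70, the PI3K regulatory subunits 42 and the AKT kinases 23. In receptors 66.7% of peaks lay in the 3′UTR and 22.9% in the CDS. In adaptors the order was the other way, with 24.3% in the 3′UTR and 65.7% in the CDS. PI3K subunits stood between, at 35.7% and 42.9%. The AKT kinases had 56.5% in the 3′UTR, 8.70% in the CDS and 26.1% outside the longest coding isoform. These shares mix 2 unlike genes. AKT2 had 11 of 14 peaks in the 3′UTR and 2 outside, and AKT1 had 2 of 9 in the 3′UTR and 4 outside. The 3′UTR makes up 67.7% of the AKT2 isoform and 25.5% of the AKT1 isoform. Shares are over peaks, and a stretch called in several lists counts once in each, so that the peaks are not independent.

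Merging gave 73 loci on the 9 transcripts. A peak in all 4 stages was present at 15 of them (20.5%), against 13.3% of the 87989 loci of all genes. All 6 lists had a peak at 12 (16.4%), against 9.40% for all genes. These 12 were 7 on receptors, 4 on adaptors and 1 on PIK3R1, and none on PIK3R2, AKT1 or AKT2. A single list had the peak at 33 loci (45.2%), against 53.4% for all genes. Of the 33, WT PP had 15, hILO 6, PP 5, hPSC 3, A5-KO PP 3 and DE 1. The loci of all genes include genes with a peak in only some lists, whose loci cannot be in all of them. Of the 9 genes only AKT2 lacked a peak in any list. The shares of the 9 are therefore not set against genes of like presence.

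**Figure D3:**
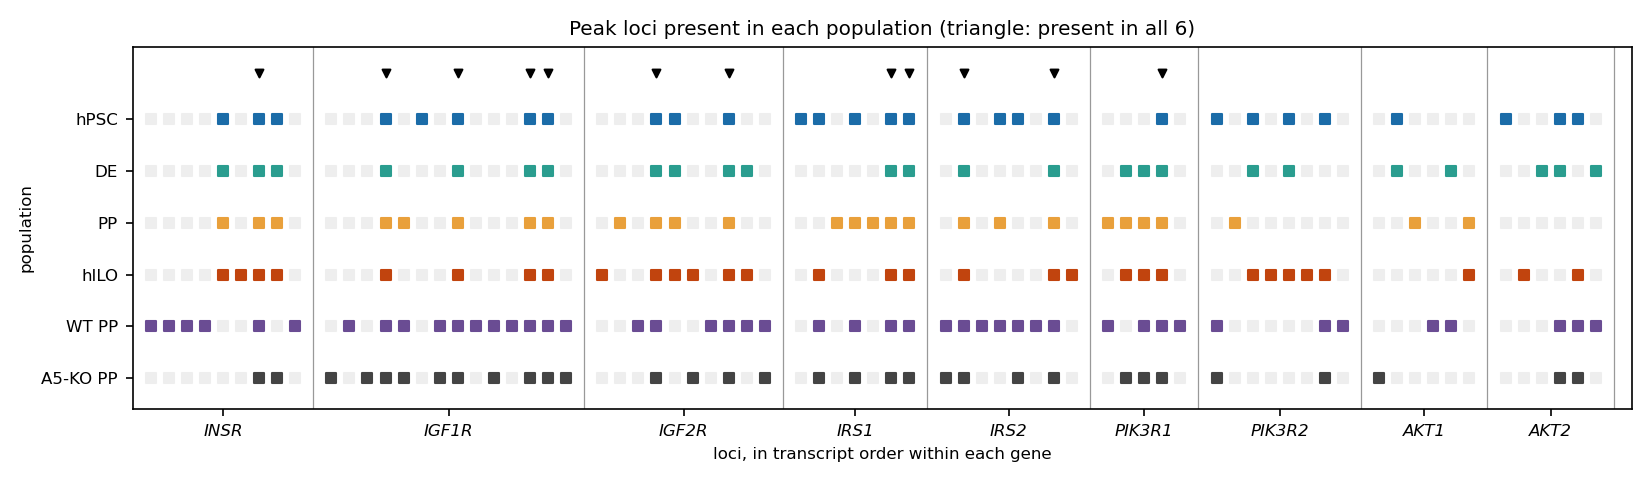
Presence of a peak at each of the 73 loci in the 6 lists, loci grouped by gene along the horizontal axis and triangles over those in all 6. The 12 columns filled in all 6 lists belong to receptors, adaptors and PIK3R1, and WT PP holds 15 of the 33 loci seen in 1 list.

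The next comparison asked how many peaks of a stage were already present in the stage before. A peak counted as shared where a peak of the other list covered more than 50% of its exonic length. DE shared 21 of 35 peaks with hPSC (Wilson 95% interval of the percentage 43.6 to 74.4), against 64.7% over all DE peaks. PP shared 20 of 36 with DE (55.6%, 39.6 to 70.5), against 57.0% over all PP peaks. hILO shared 22 of 40 with PP (55.0%, 39.8 to 69.3), against 45.6% over all hILO peaks. Each background share lay within the interval, which covers counting error only.

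The genes differed in these counts. IGF1R shared 5 of 6 peaks of DE, 6 of 7 of PP and all 7 of hILO. INSR shared 3 of 3, 2 of 4 and 4 of 5. IRS1 shared 4 of 4, 3 of 8 and 3 of 5, and IRS2 3 of 3, 2 of 4 and 2 of 5. PIK3R1 shared 1 of 7 peaks of DE with hPSC, where it had a single peak, and then 3 of 5 and 2 of 4. IGF2R shared 2 of 5, 4 of 5 and 3 of 6. AKT1 shared 0 of 2, 0 of 2 and 1 of 1, and AKT2 1 of 3 in DE and 0 of 2 in hILO, with no peak in PP. PIK3R2 shared 2 of 2 in DE, and none of its 1 peak in PP and 5 in hILO.

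The comparison of WT PP with A5-KO PP addressed peaks in the absence of the demethylase. Of the 40 peaks in A5-KO PP, 31 were shared with WT PP (77.5%, 62.5 to 87.7), against 46.8% over all A5-KO PP peaks. With more than 50% required of both peaks the share was 47.5%, against 30.5% over all A5-KO PP peaks. Of the 51 peaks in WT PP, 23 were shared with A5-KO PP (45.1%, 32.3 to 58.6), against 50.0% over all WT PP peaks. WT PP thus had more peaks on the 9 transcripts than A5-KO PP (51 and 40), while over all genes its list was the shorter (43312 and 55219). With peaks less than 100 nt apart merged, the counts were 40 and 36. As a share of its list, these peaks were 0.118% for WT PP and 0.0724% for A5-KO PP. Of the 52 loci with a peak in either list, both had one at 26 (50.0%), WT PP alone of the pair at 20 (38.5%) and A5-KO PP alone at 6 (11.5%). Over the 64792 such loci of all genes, which include genes with no peak in the other list, the shares were 36.6%, 24.4% and 39.0%. Of the 20, 5 were also called in a stage of batch 1, and of the 6, 3 were.

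By gene, before close peaks were merged, WT PP had more peaks on INSR (7 and 2), IRS2 (10 and 7) and IGF2R (6 and 4). PIK3R2 and AKT1 added 1 peak each. IGF1R, PIK3R1 and AKT2 had equal counts, and IRS1 had 4 in WT PP and 5 for A5-KO PP. Merging joins the WT PP peaks chr13:109785128-109785627 and chr13:109785678-109786052 on IRS2. It also joins chr15:98961390-98961589 and chr15:98961640-98962064 on IGF1R. A5-KO PP had close neighbours on both genes too. The higher IRS2 count and the equal IGF1R count thus depend on how stretches were split. Covered exon was lower in A5-KO PP for 8 of the 9, with IRS2 at 3350 and 1700 nt and IGF1R at 4025 and 3500 nt, and higher for PIK3R1 (1300 and 2942 nt). Of the 11568 protein-coding genes with a peak in both lists, 58.3% had less covered exon in A5-KO PP. With 1 list a genotype, picked clones, and 9.51% and 4.72% of peak names skipped, these differences have no replicate check. PP of batch 1 shared 22 of 36 peaks with WT PP (61.1%, 44.9 to 75.2), against 57.9% over all PP peaks. With more than 50% required of both peaks the share was 33.3%, against 24.0% over all PP peaks.

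Over the 240 peaks, 47.9% had their midpoint in the 3′UTR (Wilson 95% interval 41.7 to 54.2), 37.5% in the CDS (31.6 to 43.8), 8.33% in the 5′UTR and 6.25% outside the longest coding isoform. The isoforms themselves are 49.7% 3′UTR, 42.1% CDS and 8.19% 5′UTR by length. These are pooled values, and the shares by role above lie on either side of them. The 240 peaks lie on 73 loci, and a stretch called in several lists counts once in each. The 2 intervals take the peaks as independent and are therefore too narrow. Within 200 nt of the stop codon lay the midpoints of 24 of the 225 peaks centred on the isoforms (10.7%), where 4.93% of the isoform length lies. By midpoint this share was 10.8% to 15.2% in the 4 stages, 6.52% in WT PP and 5.56% for A5-KO PP, but wide peaks across the stop codon can have their midpoint elsewhere. Counting any part of a peak, 20.0% to 27.5% reached this stretch in the stages, 14.9% in WT PP and 15.8% for A5-KO PP. Peaks across the stop codon itself numbered 3 to 5 in every list. By gene, 6 such peaks were on IGF1R, 6 on IGF2R, 4 on INSR, 4 on IRS1, 3 on PIK3R1 and 2 on IRS2, and the other 3 genes had none. The region shares, the shares near the stop codon and the counts across it were not computed over all peaks of the lists. Whether they set these transcripts apart from peaks in general was therefore not tested.

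DRACH matches were denser in member peaks than in the other exons of the same genes, by 1.19 times in hPSC, then 1.26 in DE, 1.21 in PP and 1.28 for hILO, with 1.12 in WT PP against 1.21 in A5-KO PP. On the opposite strand the ratio was 0.841 to 0.926. GGAC, part of many DRACH matches, was denser by 1.53, 1.25, 1.32, 1.35, 1.37 and 1.30 times in the same order. At least 1 DRACH match was in 212 of 240 peaks (88.3%), against 90.8% of all peaks and 93.8% of 304 windows of 200 nt from the same exons outside peaks. So short a motif is present in most stretches of this length. GGAC was in 153 peaks (63.7%), against 55.0% of all peaks and 47.4% of those windows. Peaks on the 9 transcripts were longer than peaks in general, with medians of 200 to 237.5 nt by list against 175 nt, and longer stretches hold a motif more often.

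For IGF1R, PIK3R1 and AKT1 the reads of hPSC and DE could be used. The 8 IGF1R peaks in hPSC had 53 to 360 input reads and 343 to 4222 IP reads, and log2 enrichment, the exomePeak2 estimate of IP against input, from 1.23 to 2.20. The 6 in DE had 117 to 787 input reads and 249 to 1918 IP reads, with log2 enrichment from 1.43 to 2.1. For IGF1R the highest value in hPSC was the 3′UTR peak at chr15:98961640-98962089 (272 input and 3500 IP reads), and in DE the stop codon peak at chr15:98957265-98957789 (328 input and 1207 IP reads). The IGF1R ranges of hPSC and DE overlapped. The PIK3R1 3′UTR peak was higher, at 3.22 in hPSC on 10 input reads and 2.89 in DE on 58. The other 6 PIK3R1 peaks in DE had 1.34 to 2.63, on 6 to 31 input reads. In hPSC the AKT1 5′UTR peak had 41 input and 269 IP reads with log2 enrichment 1.07, and in DE the neighbouring 5′UTR peak had 69 and 199 with 1.65. The other AKT1 peak in DE, outside the longest coding isoform, had 39 and 86 with 1.10. In A5-KO PP the PIK3R2 peak at the start of the transcript had log2 enrichment 2.73 (801 input and 1822 IP reads). The peak in its 3′UTR, on the stretch that overlaps other genes and so not PIK3R2 reads alone, had 3.11 (522 and 1144). The plain log2 ratio of IP to input reads, with 1 added to each, was lower at these PIK3R2 peaks, at 1.18 and 1.13. At the 8 IGF1R peaks of hPSC it was higher than the estimate, at 2.67 to 3.68. Estimate and reads thus differ by list, and the estimates were not compared between batches. Both PIK3R2 peaks were out of register with blocks of 1000 rows, and no WT PP value was in register to set beside them.

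Between hPSC and DE, 5 shared peaks were in register in both lists. Their log2 enrichment in DE minus that in hPSC was -0.10 with a counting error of 0.10 at the IGF1R 3′UTR peak of chr15:98962440-98962964, and -0.26 with an error of 0.12 at chr15:98961640-98962089. It was -0.12 with an error of 0.14 at chr15:98958090-98958614, and -0.08 with an error of 0.17 in the CDS at chr15:98707900-98708024. At the PIK3R1 3′UTR peak it was -0.33 with an error of 0.50, from 10 input reads in hPSC and 58 in DE. The median was -0.12, the same as the median of all 7325 shared peaks in register (quartiles -0.32 and 0.07). A difference of at least 1 in size was seen in 2.81% of those peaks and in 0 of the 5. The 95% counting interval of the -0.26 excluded 0, and the value lay within the quartiles of all shared peaks. With a centred log2 ratio of the counts the differences were 0.04, -0.10, -0.04, 0.11 and -0.39 in the same order. Their signs and the -0.26 thus depend on the measure.

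**Figure D4:**
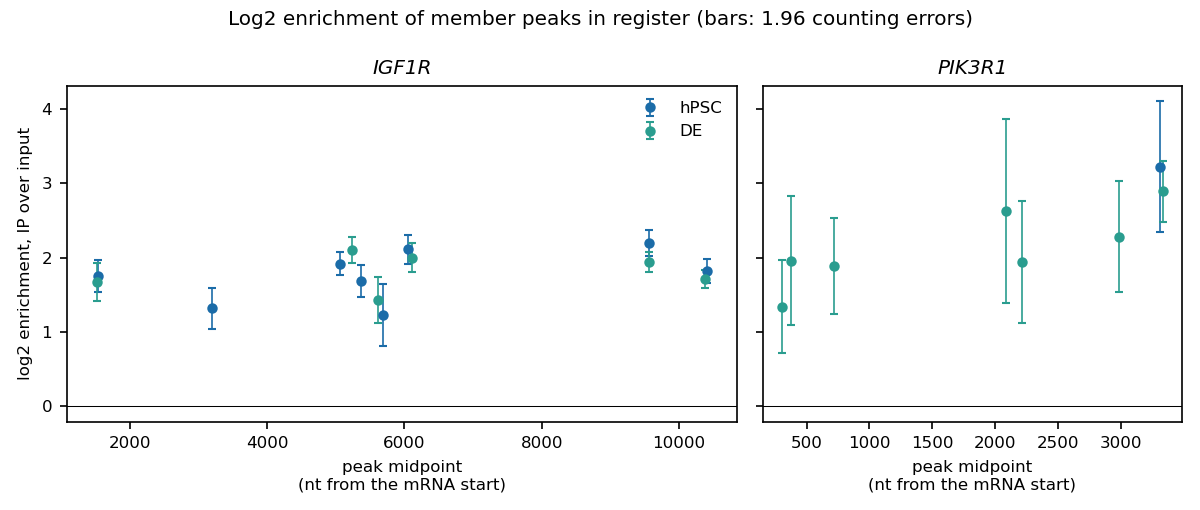
log2 enrichment of the peaks of IGF1R and PIK3R1 whose reads were in register, in hPSC and DE, against the distance of the peak midpoint from the mRNA start, with bars for the 95% counting interval. The 5 pairs differ by -0.33 to -0.08, with the PIK3R1 pair carrying the widest error.

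Other genes of the pathway were taken as a list of 46, from ligands to FOXO factors. Of the 46, 36 had a peak in hPSC (78.3%), then 31 in DE (67.4%), 35 in PP (76.1%) and 36 for hILO (78.3%), with 38 in WT PP (82.6%) against 36 in A5-KO PP (78.3%). Over all protein-coding genes the shares were 60.2%, 57.0%, 52.2%, 57.7%, 62.8% and 69.7% in the same order. With 5 or more peaks there were 9, 6, 8, 6, 13 and 14 of the 46, against 11.6%, 9.09%, 8.50%, 8.81%, 15.5% and 17.5% of all protein-coding genes. IGFBP6, an IGF binding protein, and INSRR, an orphan relative of INSR, had no peak in any list. The most peaks over the 4 stages were on FOXO1 (25), the transcription factor that AKT kinases exclude from the nucleus, on TSC1 (23), which restrains mTOR, and on PHLPP2 (23), a phosphatase of AKT. Of the 3 ligands, INS had peaks in hILO only (2) and IGF1 in A5-KO PP only (2). IGF2 had none in hPSC, then 1 in DE, 4 in PP and 6 for hILO, with 8 in WT PP against 2 in A5-KO PP.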

How the data were processed

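Peak lists of 6 populations were used as deposited, 1 per population. Per the methods of the study, the authors used fastp for trimming, HISAT2 for alignment to GRCh38, and exomePeak2 to call peaks. Each list has 1 IP and 1 input column for its population. The submitters' processing notes also name HOMER. Beside each peak the authors gave counts of input and IP reads for the population (sum or mean over libraries is not given in the sources used here), a log2 enrichment, a raw p-value (not used here) and an adjusted p-value. The lists were limited to an enrichment of at least 1.5 and, in the values, an adjusted p-value under 0.05. The methods name a limit of 1e-05 on the raw p-value, which was not checked here. Input reads in peaks summed to 6987612 to 28463998 per list and IP reads to 30723097 to 79822815. All were used with Python 3.11.15, pandas 2.3.3, numpy 2.4.6, scipy 1.17.1 and pysam 0.24.0.

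Rows were put in the order of the peak names, and in blocks of 500 the rank of the reads was correlated with the rank of exonic length, moving the read columns by up to 60 rows. A block was in register where it and its neighbours correlated best, at 0.2 or more, with the columns not moved. This rule was chosen after seeing the data and was tested on simulated data. Where both lists were in register, input reads of peaks with the same coordinates gave Spearman correlations of 0.744 or more, against 0.261 or less where neither was. Rows out of register gave no read, enrichment or p value here.

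Positions were read against GENCODE 44, with the longest coding isoform (99.87% of peaks lay on an annotated exon of their gene). Intervals are Wilson 95% intervals, cover counting error only and take peaks as independent. Differences in enrichment have a counting error from the reads, with 0.5 added. The members, lists of genes and rules were chosen with earlier results of these data known. All 9 genes were named, and single peaks by a rule: a locus in all 4 stages, the highest enrichment with 50 or more input reads, or a difference of 1 or more. Other loci named were chosen after their values were seen, as were the ligands. The lists hold no count per library, so the planned edgeR test was not run and no p is given.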

Additional observations from a re-analysis of the deposited data

How the results depend on the processing

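Across 39 results and 15 settings, 85 values were recomputed. Of these, 76 stayed within the interval or spread of the main value or, for counts, within 1.5 times of it, and for motif ratios also on the same side of 1. The settings were other definitions of a shared peak, other isoforms and region rules, other motif counts, merging of peaks less than 100 nt apart, other error and read limits, and block sizes of 250 and 1000 rows for the register check (chosen after seeing the data), which put 33 and 25 of the 240 peaks in register. The share of A5-KO PP peaks shared with WT PP went from 77.5% to 47.5% when more than 50% of both peaks was required, a rule under which a peak inside a much wider one no longer counts. The share of PP peaks shared with WT PP (61.1%) was 33.3% by that rule, and 27.5% counted from the WT PP list, both settings added after seeing the data. The DRACH ratio taken on the opposite strand fell below 1, at 0.926 in hPSC, 0.883 in DE, 0.897 in PP, 0.860 for hILO, 0.859 for WT PP and 0.841 for A5-KO PP. Inside their intervals or spread, the 5′UTR share in PP went from 2.78% to 8.33% when any overlap counted, and the median DE minus hPSC difference from -0.12 to -0.04 with a centred log2 ratio of the counts. The 2 PIK3R2 peaks of A5-KO PP were the ones lost from register with blocks of 1000 rows. No paired analysis was possible because each list gives 1 value per population and none per library, and for the same reason no library could be left out. The stricter limits on enrichment and p were not run, since a count of peaks past them would cover only the 27 of 240 rows in register. The enrichment differences from DE to PP, PP to hILO, hPSC to hILO and WT PP to A5-KO PP gave no value, since no shared peak of the 9 genes was in register in both lists. The PIK3R1 pair rests on 10 input reads in hPSC.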
